A study of Mus musculus with 12 samples.

Results

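Enzymes that place or remove methyl groups on histones and DNA, or that remove acetyl groups from proteins, were followed in mouse satellite cells, the resident stem cells of skeletal muscle, with and without the Hedgehog effector *Gli3*. The members were the protein-coding genes whose symbols belong to the families Kmt2, Kmt5, Kdm1 to Kdm8, Ezh, Eed, Suz12, Dnmt1 and Dnmt3, Tet, Hdac, Sirt, Setd, Suv and Prmt. Of the 25093 genes in the deposited count table, 72 met this rule, which uses names only. Histone methylation carries different information at different residues. Methylation of H3K4 by the KMT2 and SETD1 enzymes marks active promoters and enhancers, methylation of H3K27 by Polycomb repressive complex 2 (PRC2) and of H3K9 by the SUV39H enzymes marks silenced chromatin, and the KDM enzymes reverse these marks. Deacetylases remove the acetyl groups that go with open chromatin, DNMT and TET enzymes write and oxidise cytosine methylation, and in satellite cells members of these families are known to take part in quiescence, in the choice between self-renewal and commitment, and in the timing of the myogenic program.

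The series held 12 RNA-sequencing samples in 4 groups of 3. Every mouse carried a tamoxifen-inducible Cre (CreERT2) in 1 copy of the *Pax7* locus and the R26R-YFP reporter, was 3 to 4 months old, and received tamoxifen, controls included. The control mice were Gli3+/+ and the others Gli3 fl/fl, in which Cre removes exon 8 in cells that express *Pax7* (Gli3Δ/Δ). The lines were on a mixed 129SV and C57BL/6 background, and the sequenced mice are given as males. Quiescent satellite cells (QSCs) were sorted as α7-integrin+ CD34+ cells, negative for CD31, CD45, SCA1 and CD11b, from uninjured hindlimb muscle, with 2 to 3 mice combined in each library. Activated satellite cells (ASCs) were sorted as α7-integrin+ VCAM1+ cells, negative for the same 4 proteins, 3 days after cardiotoxin injury, with 1 mouse per library. Sorting itself partly activates QSCs, as the study's authors state. Genotypes were compared in the 6 QSC libraries, named here by genotype and by the replicate number of the labels. The 6 ASC columns of the count table could not be tied to labels, and ASCs enter only through a mean over all 12 libraries, described at the end.

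The QSC libraries held 39556784 to 65750131 estimated counts. Levels are in CPM (counts scaled to a common library size) after TMM scaling, and values of 6 libraries are listed as Gli3+/+ replicates 1, 2 and 3 and then Gli3Δ/Δ replicates 1, 2 and 3. The library of Gli3+/+ replicate 3 stood apart: its scaling factor was 0.917 against 1.008 to 1.033 in the other 5 libraries, and the chi-square per degree of freedom against the other Gli3+/+ libraries was 154 and 171, against 59.4 to 81.4 for the other pairs of a genotype. *Gli3* itself was counted at 11.2, 9.71, 9.75, 9.54, 10.5 and 6.26 CPM, a log2 fold change of -0.22 (SE 0.22, adjusted p = 0.916 by edgeR). Gene counts do not separate the removed exon, so the genotype rests on the labels. *Pax7*, which defines satellite cells, was at 798 to 1157 CPM. The satellite cell list (13 genes) summed to 5882 to 8536 CPM in Gli3+/+ and 6119 to 6667 CPM in Gli3Δ/Δ libraries. The macrophage list (8 genes) summed to 12.5 to 30.02 CPM in Gli3+/+ and 11.3 to 18.1 CPM in Gli3Δ/Δ libraries, the endothelial list (6 genes) to 157 to 216 and 135 to 165 CPM, the fibro-adipogenic list (6 genes) to 2125 to 4041 and 3454 to 3633 CPM, the mural list (4 genes) to 143 to 401 and 181 to 213 CPM, and the myofiber list (5 genes) to 42.3 to 57.3 and 46.1 to 68.4 CPM. Most of the fibro-adipogenic sum was *Col3a1*, at 1952 to 3624 CPM, while *Pdgfra* stayed between 1.65 and 3.80 CPM. Of the markers of other cell types, 1 was at 0 in a library, *Itgam* in Gli3Δ/Δ replicate 3. In the lists given here, groups did not overlap for *Cdh15*, *Cspg4* and *Myh1* (Gli3Δ/Δ above) and for *Cd68* and *Emcn* (below). Over all genes, 13% did not overlap.

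The Gli3Δ/Δ QSCs showed no enzyme of the set with a called difference. By the quasi-likelihood test of edgeR, with p adjusted (Benjamini-Hochberg) over all 25093 genes, 0 of 72 members had an adjusted p under 0.05 with a fold change of at least 1.2. Over all genes 0.351% were called (88 genes), 0.187% higher and 0.163% lower in Gli3Δ/Δ. At an unadjusted p under 0.05 there was 1 member, *Hdac1*, where 7.11% of all genes passed, and DESeq2 and limma-voom also called 0 members, with DESeq2 calling 1.64% of the genes to which it gave an adjusted p. The lowest adjusted p of any member was 0.357 by edgeR, 0.0948 by DESeq2 and 0.219 by limma-voom. The differences were bounded. All 69 members with a mean of at least 1 CPM had at least 10 counts in every QSC library, their log2 fold changes lay between -0.59 and 0.28, and the 95% interval lay within a 2-fold change in either direction for 67 of the 69. The exceptions were *Kdm6b* and *Suv39h2*.

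**Figure D1:**
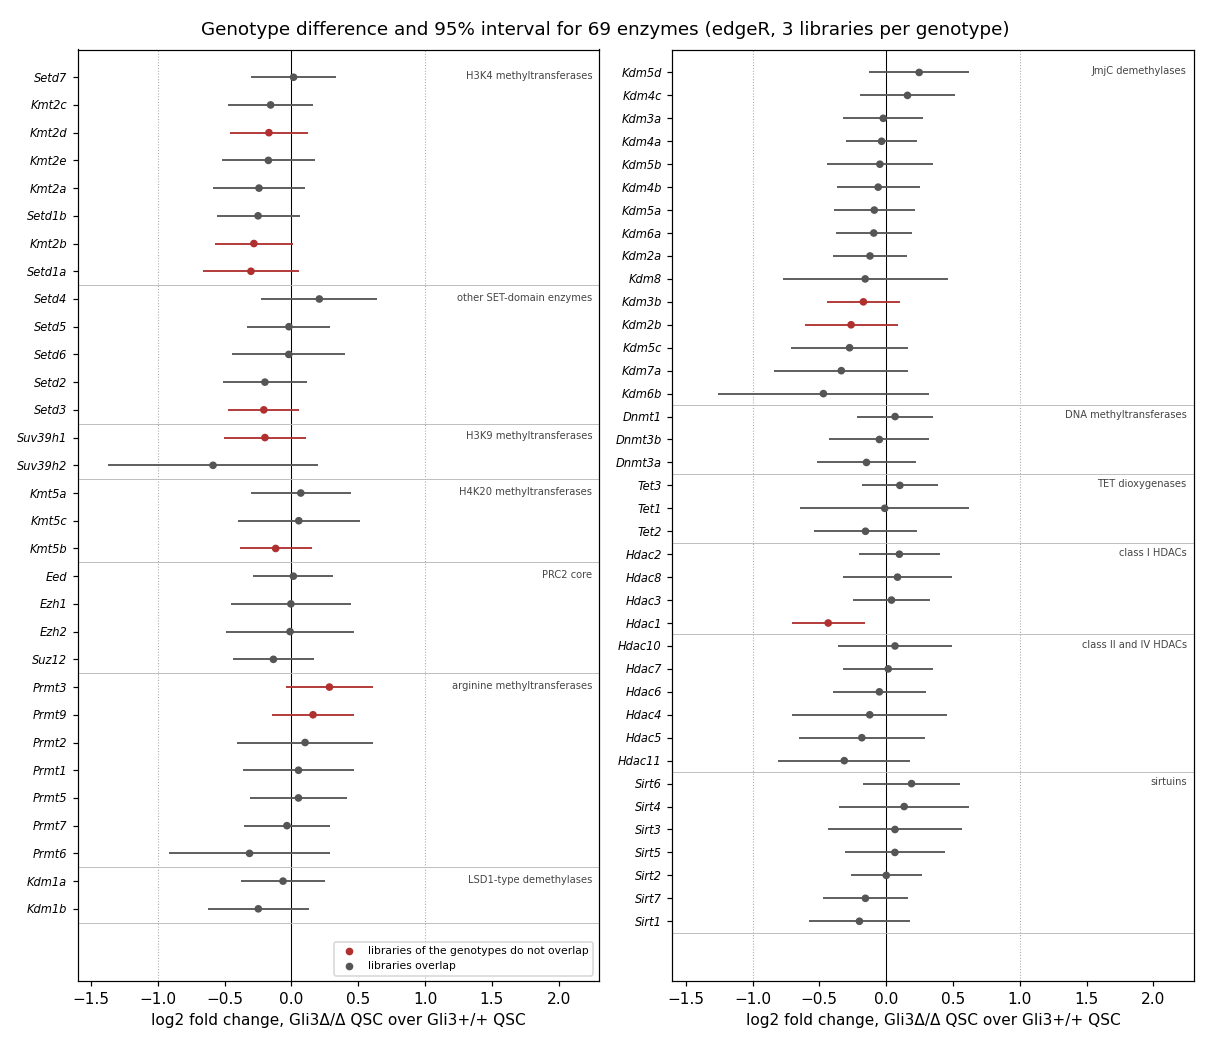
Log2 fold change of Gli3Δ/Δ over Gli3+/+ QSCs (x axis; points) with its 95% interval (lines) for the 69 enzymes with a mean of at least 1 CPM, grouped by role, from 3 libraries per genotype. Dotted lines mark a 2-fold change, and red marks the 11 enzymes whose libraries did not overlap between genotypes; only the interval of *Hdac1* lies wholly on one side of 0, and only those of *Kdm6b* and *Suv39h2* cross a dotted line.

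Quiescent cells held RNA of nearly the whole enzyme set. At least 1 CPM was reached by 69 of 72 members and by 58.6% of all genes in the table. The median member stood at 64.8 CPM, and the median over the 12457 protein-coding genes of at least 1 CPM was 27.1 CPM. The 3 members below 1 CPM were *Dnmt3c*, a germ-line DNA methyltransferase, at a mean of 0.017 CPM, *Hdac9*, a class IIa deacetylase, at 0.249 CPM, and *Kdm4d*, an H3K9 demethylase, at 0.292 CPM. In bulk samples fewer expressing cells and less RNA per cell cannot be told apart.

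Levels of different genes were set side by side only after division by exon length (CPM per kb of the union of exons). *Kdm6b*, the H3K27 demethylase JMJD3, had the highest mean, 36.9 ± 14.8 CPM per kb (SD, n = 6 libraries), and its SD shows how unevenly the libraries carried it. *Kmt2e*, a KMT2-family protein with little methyltransferase activity of its own, followed at 31.8 ± 4.11, *Prmt1*, the main enzyme for asymmetric dimethylation of arginine, at 31.1 ± 4.98, *Sirt2*, a largely cytoplasmic deacetylase, at 28.3 ± 0.521, *Hdac2* at 23.5 ± 1.95 and *Ezh1* at 22.8 ± 4.05 CPM per kb. *Kmt2a*, *Kmt2d*, *Kmt2b* and *Kdm5c* completed the 10 highest, so that 4 of these 10 were KMT2 proteins. The order was loose. Of the 68 pairs of neighbours in it, 2 had ranges over the 6 libraries that did not meet, *Sirt2* over *Hdac2* and *Hdac8* over *Suv39h2*, and with the longest annotated transcript as the length 6 of the 10 remained among the 10 highest, led by *Sirt2*.

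**Figure D2:**
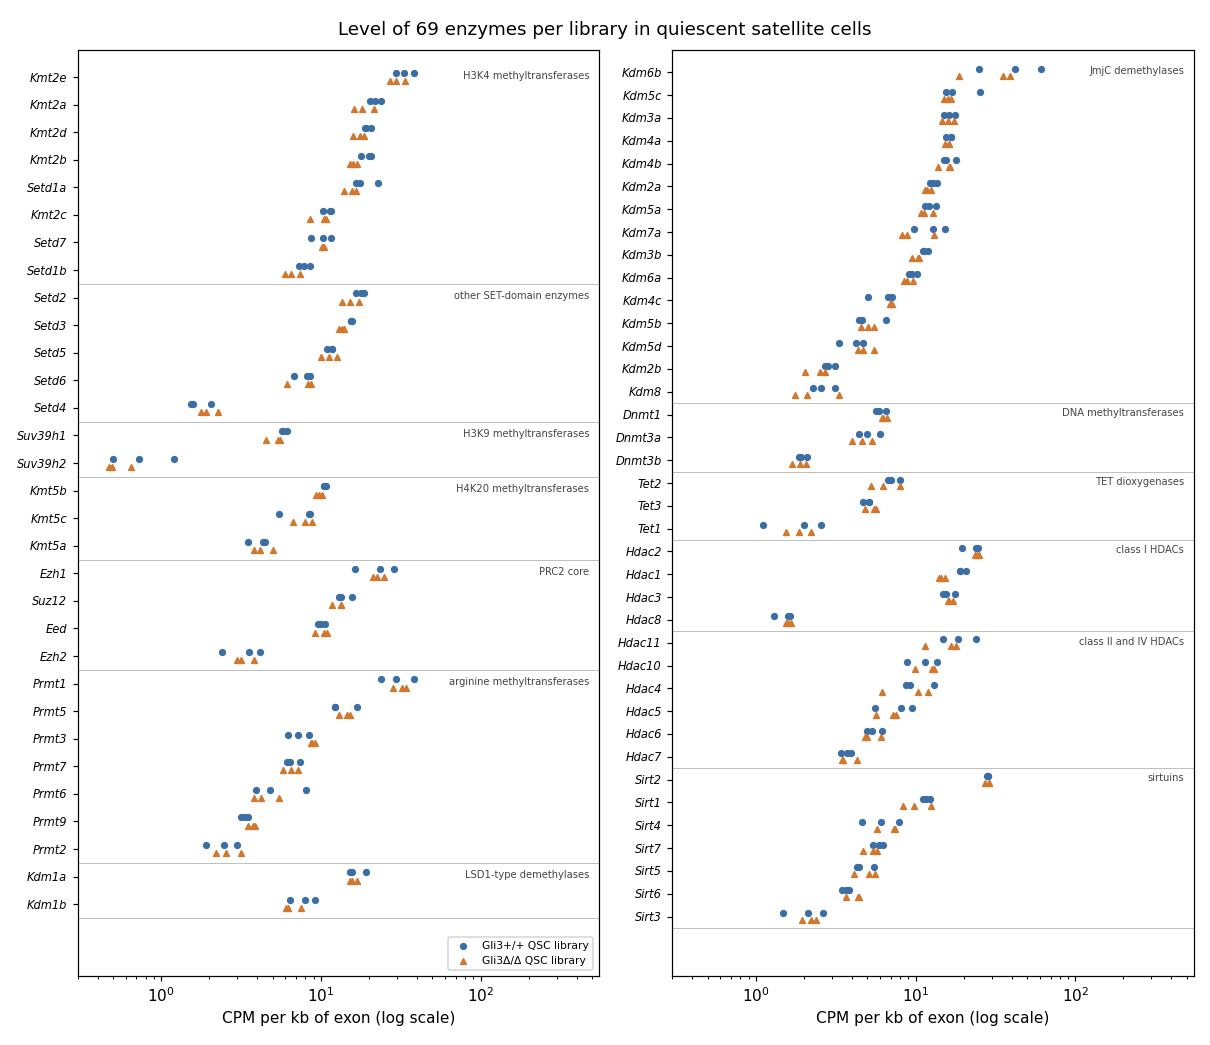
CPM per kb of exon (x axis, log scale) of 69 enzymes in each of the 6 QSC libraries (blue circles Gli3+/+, orange triangles Gli3Δ/Δ), grouped by role. Levels span from *Suv39h2* at a mean of 0.674 to *Kdm6b* at a mean of 36.9 CPM per kb, and circles and triangles interleave for most enzymes.

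The H3K4 methyltransferases leaned to lower values in Gli3Δ/Δ QSCs without passing the test. Of the 8 members of this group 7 had a log2 fold change below 0, the median was -0.21, and 0 were called. *Kmt2b* (ENSMUSG00000006307.16, chromosome 7 of GRCm38, 30568858 to 30588726), the methyltransferase MLL2 of CpG-rich promoters, was at 170, 192, 199, 152, 162 and 147 CPM. The highest Gli3Δ/Δ library thus stood below the lowest Gli3+/+ library, with a log2 fold change of -0.28 (95% interval -0.57 to 0.01) and an adjusted p of 0.713 by edgeR. *Setd1a*, the catalytic subunit of a COMPASS complex that trimethylates H3K4, was at 113, 120, 155, 113, 106 and 95.2 CPM (log2 fold change -0.30, interval -0.66 to 0.05). Its groups touched at 113 CPM and were separated by a margin smaller than the rounding, and its highest value came from Gli3+/+ replicate 3. *Kmt2d*, an enhancer monomethyltransferase, was at 380, 411, 374, 370, 351 and 316 CPM (-0.17), again without overlap. *Kmt2a* (MLL1), an enzyme that PAX7 is known to recruit to myogenic genes, ranged from 341 to 396 CPM in Gli3+/+ and from 268 to 360 CPM in Gli3Δ/Δ libraries (-0.24), so its groups overlapped. *Kmt2e* was at 308 to 402 and 281 to 349 CPM (-0.17), and *Kmt2c* and *Setd1b* were at -0.16 and -0.25. *Setd7*, which also methylates non-histone proteins, was the exception to the lean, at 93.9 to 125 CPM against 110 to 113 CPM (0.02).

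Exon length moved with these values. The 25 members with at least 8000 bases of exon had a median log2 fold change of -0.15 and 22 of them (88.0%) were below 0, while the 44 shorter members of at least 1 CPM had a median of -0.01 with 23 (52.3%) below 0. Over the protein-coding genes of at least 1 CPM, 62.4% of the 2412 long and 49.1% of the 10045 short ones were below 0, with medians of -0.06 and 0.00. Of the 8 H3K4 methyltransferases, 7 are long by this measure, but these are not the same 7 that were below 0. The short one, *Setd1a*, had the most negative value of the group (-0.30), and *Setd7*, the one above 0 (0.02), is long. The part of transcript length in these values was not tested. Over all 72 members the median was -0.05 and 46 (63.9%) were below 0, where 54.0% of all genes were. Without Gli3+/+ replicate 3 the members' median was -0.08, and it ranged from -0.09 to -0.04 as each library was left out in turn.

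**Figure D3:**
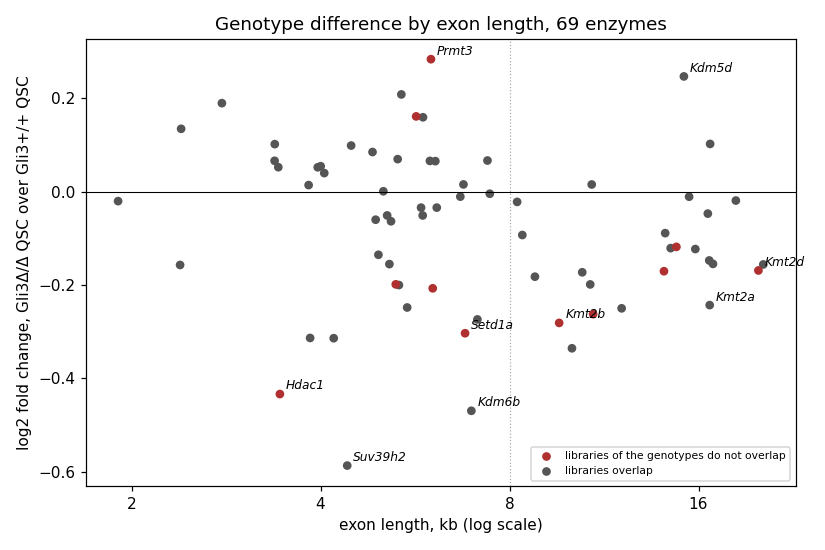
Log2 fold change of Gli3Δ/Δ over Gli3+/+ QSCs (y axis) against the length of the union of exons in kb (x axis, log scale) for 69 enzymes; red points are enzymes whose libraries did not overlap between genotypes. To the right of the dotted line at 8 kb, 22 of 25 points lie below 0, with *Kdm5d* the highest of the 3 above it, and to its left the points lie on both sides of 0.

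Among the H3K9 methyltransferases the *Suv39h1* libraries did not overlap, at 30.6, 32.3, 30.3, 28.3, 23.9 and 29.1 CPM (log2 fold change -0.20). *Suv39h2*, its partner in building pericentromeric heterochromatin, had the most negative value of the 69 members, -0.59 (SE 0.35, interval -1.37 to 0.20, adjusted p = 0.834 by edgeR), from 3.20, 2.19, 5.31, 2.86, 2.09 and 2.16 CPM. That value turned on 1 library: without Gli3+/+ replicate 3 it was -0.18. For H4K20, *Kmt5a*, the monomethyltransferase needed in dividing cells, was at 18.6 to 23.8 and 20.2 to 26.5 CPM (0.07), and *Kmt5b*, a dimethyltransferase that has been linked to satellite cell quiescence, was at 155, 159, 153, 150, 144 and 137 CPM, which put every Gli3Δ/Δ library below every Gli3+/+ library by a log2 fold change of only -0.12. *Kmt5c* was at 21.7 to 34.4 and 26.8 to 35.0 CPM.

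In the remaining SET-domain group *Setd3*, an actin histidine methyltransferase, was at 93.4, 93.7, 95.03, 78.01, 81.99 and 84.5 CPM. These groups were tight and apart, with a log2 fold change of -0.21 (interval -0.47 to 0.06, adjusted p = 0.818 by edgeR). *Setd2*, which trimethylates H3K36, was at 179 to 201 and 147 to 188 CPM (-0.20), and *Setd4*, which has been studied as a factor of quiescent cells, at 8.22 to 11.04 and 9.54 to 12.2 CPM (0.21). *Setd5* and *Setd6* differed by -0.02 each on the log2 scale.

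No subunit of the PRC2 core differed between genotypes by more than the spread of its libraries. *Ezh1* (ENSMUSG00000006920.14, chromosome 11, 101191115 to 101226463), the catalytic subunit typical of non-dividing cells, was at 174, 213, 122, 166, 157 and 185 CPM. *Ezh2* (ENSMUSG00000029687.16, chromosome 6, 47530139 to 47595341), the catalytic subunit typical of dividing cells, was at 27.8, 23.5, 15.97, 21.3, 25.5 and 20.003 CPM. *Ezh1* was above *Ezh2* in 6 of 6 libraries also per kb of exon, with means of 22.8 and 3.34 CPM per kb. The genotype difference was 0.00 (interval -0.46 to 0.45) for *Ezh1* and -0.01 (-0.49 to 0.47) for *Ezh2*. Both were lowest in Gli3+/+ replicate 3, and without it they stood at -0.19 and -0.20. *Eed* and *Suz12*, the scaffold subunits, differed by 0.01 and -0.14.

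Of the 7 protein arginine methyltransferases 5 were above 0, again with 0 called. *Prmt3* (ENSMUSG00000030505.17, chromosome 7, 49778346 to 49858265), which methylates ribosomal protein S2, was at 43.2, 37.3, 50.4, 52.6, 55.0 and 51.7 CPM. All Gli3Δ/Δ libraries lay above all Gli3+/+ libraries, with the largest positive log2 fold change of the 69 members, 0.28 (SE 0.14, interval -0.04 to 0.61, adjusted p = 0.770 by edgeR). *Prmt9*, which methylates a splicing factor, followed the same order at 19.7, 18.9, 17.9, 21.4, 19.9 and 22.01 CPM (0.16). *Prmt1* was at 81.8 to 131 and 97.1 to 117 CPM (0.05), *Prmt5*, the main symmetric dimethyltransferase, at 48.4 to 66.2 and 51.1 to 60.1 CPM (0.05), and *Prmt7*, a monomethyltransferase that has been linked to satellite cell self-renewal, at 37.8 to 45.1 and 35.5 to 44.2 CPM (-0.03). *Prmt6* was at -0.31, from 16.5, 20.1, 33.6, 16.01, 17.7 and 22.8 CPM, and without Gli3+/+ replicate 3 at 0.04. *Prmt2* was at 0.10.

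Of the 15 JmjC demethylases of at least 1 CPM, 13 were below 0, with a median of -0.09, and 0 were called. Of all protein-coding genes of at least 1 CPM 51.7% were below 0, and of those with at least 8000 bases of exon 62.4%. Most of the 15 are long by this measure, and the part of length was not tested. The H3K27 demethylase *Kdm6b* (ENSMUSG00000018476.7, chromosome 11, 69398508 to 69413675) was the most uneven of the well-counted members, at 294, 175, 425, 271, 245 and 129 CPM. The extremes were Gli3+/+ replicate 3 and Gli3Δ/Δ replicate 3, and the coefficient of variation was 42.1% in Gli3+/+ and 35.0% in Gli3Δ/Δ. Its log2 fold change was -0.47 (SE 0.35, interval -1.26 to 0.32, adjusted p = 0.888 by edgeR), -0.12 without Gli3+/+ replicate 3 and -0.21 without Gli3Δ/Δ replicate 3. *Kdm6a*, its X-linked paralog UTX, was at 76.5 to 85.2 and 70.5 to 81.3 CPM (-0.09). *Kdm7a*, a demethylase of H3K9 and H3K27, was at 97.7, 129, 154, 130, 82.3 and 88.8 CPM (-0.34). *Kdm2b*, the CpG-island reader that belongs to a non-canonical PRC1, and *Kdm3b*, an H3K9 demethylase, had groups that did not overlap, at 29.6 to 33.99 against 21.98 to 29.5 CPM (-0.26) and 157 to 168 against 135 to 147 CPM (-0.17). The *Kdm2b* groups were barely apart. Of the other JmjC members of at least 1 CPM, *Kdm2a*, *Kdm3a*, *Kdm4a*, *Kdm4b*, *Kdm5a*, *Kdm5b* and *Kdm8* lay between -0.16 and -0.02 and *Kdm4c* at 0.16.

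The H3K4 demethylases *Kdm5c* and *Kdm5d* are a pair on the sex chromosomes, X and Y. *Kdm5d* was at 50.4, 71.5, 64.0, 82.9, 71.2 and 66.6 CPM (0.25), so RNA of male cells was counted in every library. *Kdm5c* was at 110, 120, 181, 119, 108 and 113 CPM (-0.27), and without Gli3+/+ replicate 3, its highest library, at -0.02. The study gives the sequenced mice as males. The flavin-dependent demethylases *Kdm1a* (LSD1) and *Kdm1b* were at -0.06 and -0.25, *Kdm1a* from 78.6 to 99.1 and 78.7 to 87.5 CPM.

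Among the enzymes of DNA methylation, *Dnmt1*, the maintenance methyltransferase, was among the steadiest members at 48.4, 41.8, 43.5, 46.1, 45.5 and 48.5 CPM (log2 fold change 0.07, interval -0.22 to 0.35). *Dnmt3a*, the de novo methyltransferase, was at 73.7 to 100 and 66.3 to 88.2 CPM (-0.15) and *Dnmt3b* at 9.49 to 10.6 and 8.63 to 10.4 CPM (-0.05). *Tet2*, which oxidises 5-methylcytosine, was at 114 to 135 and 89.3 to 134 CPM (-0.16), *Tet3* at 77.9 to 85.3 and 81.0 to 94.3 CPM (0.10), and *Tet1* at 17.2 to 39.6 and 23.9 to 34.3 CPM (-0.01).

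*Hdac1* (ENSMUSG00000028800.15, chromosome 4, 129516104 to 129542713), the class I deacetylase of the SIN3, NuRD and CoREST complexes, gave the smallest p of the set. Its libraries were at 65.8, 65.7, 71.3, 52.5, 49.7 and 48.0 CPM, or 67.6 ± 3.23 CPM in Gli3+/+ and 50.1 ± 2.28 CPM in Gli3Δ/Δ QSCs (SD, n = 3 each). The gap between the groups exceeded the spread within either. The log2 fold change was -0.43 (SE 0.12, interval -0.71 to -0.16), the unadjusted p by edgeR was 0.00598 and the adjusted p was 0.357, so over all genes the difference did not pass. Across the alternatives its log2 fold change ranged from -0.47 to -0.39 and its adjusted p from 0.0948, with DESeq2, to 0.834, without Gli3Δ/Δ replicate 3. Its close paralog *Hdac2*, which shares these complexes, was at 107, 87.9, 110, 109, 112 and 106 CPM (0.10, interval -0.20 to 0.40), and *Hdac3* and *Hdac8* were at 0.04 and 0.09. The difference between *Hdac1* and *Hdac2* was not tested.

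In class II, *Hdac4*, a class IIa enzyme that shuttles between nucleus and cytoplasm, was at 137, 207, 147, 189, 97.0 and 164 CPM (-0.12) and depended on single libraries for its sign. *Hdac11*, the class IV enzyme, was at 91.9, 71.4, 57.0, 44.4, 68.7 and 64.3 CPM (-0.31). *Hdac5*, *Hdac6*, *Hdac7* and *Hdac10* lay between -0.18 and 0.07. Among the NAD-dependent sirtuins 5 of 7 were above 0. *Sirt1*, which links NAD levels to H4K16 deacetylation in satellite cells, was at 59.6, 65.8, 61.9, 66.8, 44.4 and 52.0 CPM (-0.20). *Sirt6*, a chromatin-bound enzyme of H3K9 and H3K56, was at 9.68 to 10.6 and 10.2 to 12.4 CPM (0.19). *Sirt3*, *Sirt4*, *Sirt5* and *Sirt7* lay between -0.16 and 0.13. *Sirt2* was the steadiest, at 142 ± 1.64 CPM in Gli3+/+ and 142 ± 3.80 CPM in Gli3Δ/Δ libraries (SD, n = 3 each).

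Libraries of the genotypes did not overlap for 11 of 72 members (15.3%), where 13% of all genes did not overlap. The Gli3Δ/Δ libraries were above in 2 members (*Prmt3* and *Prmt9*), with a background of 6.39%, and below in 9 (*Hdac1*, *Setd1a*, *Kmt2b*, *Kdm2b*, *Setd3*, *Suv39h1*, *Kdm3b*, *Kmt2d* and *Kmt5b*), with a background of 6.57%. The total share is near that of all genes, which split into 1603 above and 1649 below, and with DESeq2 size factors the count of members was 9. Among the 69 members the highest library was most often Gli3+/+ replicate 3 (22 members) and the lowest most often Gli3Δ/Δ replicate 3 (21 members). The members' median coefficient of variation was 11.7% in Gli3+/+ and 10.3% in Gli3Δ/Δ libraries, against 13.8% and 9.504% for 7649 protein-coding genes between 12.3 and 179 CPM.

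**Figure D4:**
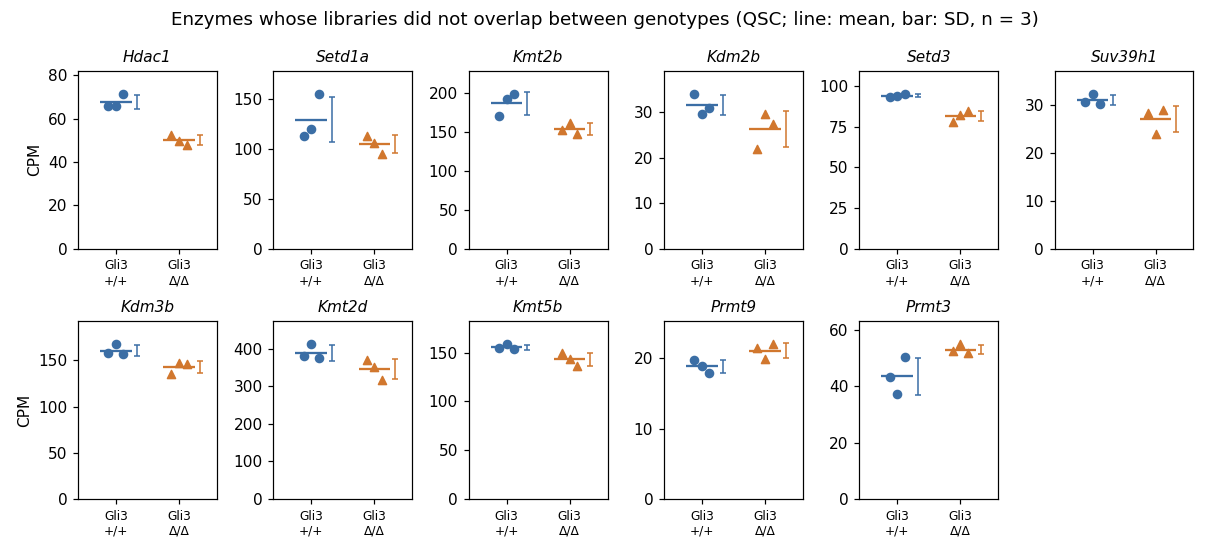
CPM (y axis, from 0) of the 11 enzymes whose 3 Gli3+/+ (blue circles) and 3 Gli3Δ/Δ (orange triangles) QSC libraries did not overlap; the horizontal line is the mean and the bar beside it the SD. The gap is widest relative to the spread for *Hdac1* (67.6 ± 3.23 against 50.1 ± 2.28 CPM) and *Setd3*, and it is barely open for *Setd1a* and *Kdm2b*.

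The dissociation-response list (*Fos*, *Jun* and 8 more) summed to 42495 to 59260 CPM in Gli3+/+ and 41958 to 46516 CPM in Gli3Δ/Δ QSCs. The cycling list (*Mki67*, *Top2a* and 6 more) summed to 77.0 to 126 and 71.2 to 91.0 CPM. Both sums overlapped between genotypes. Most of the cycling sum was *Pcna*, at 52.3 to 91.6 and 39.0 to 47.9 CPM (log2 fold change -0.71, adjusted p = 0.400 by edgeR). In each list 1 gene had groups that did not overlap, *Junb* and *Pcna*, both below, where 13% of all genes did not overlap.

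Genes that work beside these enzymes also held no called gene. Of 43 measured partners in PRC2, COMPASS, NuRD, SIN3, CoREST, NCoR and related complexes, 0 were called and 0 had groups that did not overlap, where 13% of all genes did not. Of 19 other methyltransferases outside the name rule (*Ehmt1*, *Ehmt2*, *Setdb1*, *Nsd1*, *Dot1l*, *Carm1* and others) 0 were called and 2 had groups apart, both above. Of 15 acetyltransferases and bromodomain readers 0 were called and 4 had groups apart, *Kat2a* and *Kat5* above and *Brd2* and *Kat6a* below, all 4 named after their values were seen. In this list 1 gene had an unadjusted p under 0.05: *Brd2*, a reader of acetylated histones, at 531, 559, 541, 424, 446 and 453 CPM (log2 fold change -0.30, adjusted p = 0.651 by edgeR).

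The QSC levels were also set against the whole series. The authors' tables carry, for each gene, their mean of normalized counts over all 12 QSC and ASC libraries of both genotypes. Divided by the QSC mean and scaled so that the median gene of at least 1 CPM is at 1, this gives a mean ratio. A gene without counts in ASCs would lie at about 0.5, and a value above 1 means that the ASC libraries were higher, relative to the QSC libraries, than for the median gene. The ratio has no error or test, mixes the genotypes, and would shift for a gene if the authors' normalization corrected for its transcript length. The cycling markers of at least 1 CPM had a median of 47.9, from *Pcna* at 2.27 to *Top2a* at 85.3. The 13 satellite cell markers had a median of 0.616, from *Calcr* at 0.512 to *Itga7* at 1.376, with *Pax7* at 0.558. The macrophage markers of at least 1 CPM, *Cd68* and *Lyz2*, had a median of 38.8, although the sort excluded CD45+ and CD11b+ cells. What this adds to the members' ratios was not tested.

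By this measure 9 of 69 members (13.04%) were at 1.5 or more, fewer than the 20.6% of all genes of at least 1 CPM and the 22.3% of the protein-coding ones. They were *Kmt5a* (4.70), *Suv39h2* (4.04), *Dnmt1* (3.50), *Ezh2* (3.11), *Prmt1* (2.47), *Prmt5* (1.99), *Suv39h1* (1.89), *Prmt2* (1.71) and *Suz12* (1.61). These are writers of H4K20, H3K9, H3K27, arginine and DNA methylation. No demethylase, deacetylase or H3K4 methyltransferase of at least 1 CPM was among them. The 3 members below 1 CPM were outside this count, on few QSC counts. The deacetylase *Hdac9* was at 5.44, *Dnmt3c* at 1.51 and the demethylase *Kdm4d* at 0.644. Of the 69, the nearest below 1.5 were *Kdm2b* (1.495), *Eed* (1.47) and *Hdac1* (1.46). Under 0.7 were 7 members (10.1%), where 16.2% of all genes and 13.4% of protein-coding genes were. They were *Tet1* (0.476), *Hdac4* (0.563), *Ezh1* (0.570), *Kmt2c* (0.646), *Kmt2e* (0.671), *Kmt5b* (0.691) and *Kdm5b* (0.693), with *Kdm7a* (0.712) the nearest outside. The *Tet1* value lies below that of a gene without ASC counts, so it carries error and cannot be read as an ASC level. With protein-coding genes as the reference the count under 0.7 was 14, and with single libraries left out it was 6 to 10. No share over all genes stands beside these counts. The cutoffs were chosen after the values were seen.

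Within some families the ratio differed widely between members, while *Suv39h1* (1.89) and *Suv39h2* (4.04) were both high. *Hdac1* (1.46) and *Hdac2* (1.31) lay close together. *Ezh2* stood at 3.11 and *Ezh1* at 0.570, *Kmt5a* at 4.70 with *Kmt5b* at 0.691 and *Kmt5c* at 0.941, *Dnmt1* at 3.50 with *Dnmt3a* at 0.796 and *Dnmt3b* at 0.888. The 7 arginine methyltransferases had a median of 1.335 and a lowest value of 0.996, the 8 H3K4 methyltransferases ranged from 0.646 to 0.937, and the 7 sirtuins from 0.732 to 1.011. The members' median was 0.895. Among the partner genes *Uhrf1*, which brings DNMT1 to replicated DNA and is named here after its values were seen, was at 0.548 to 3.87 CPM in QSCs and at a ratio of 49.1.

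**Figure D5:**
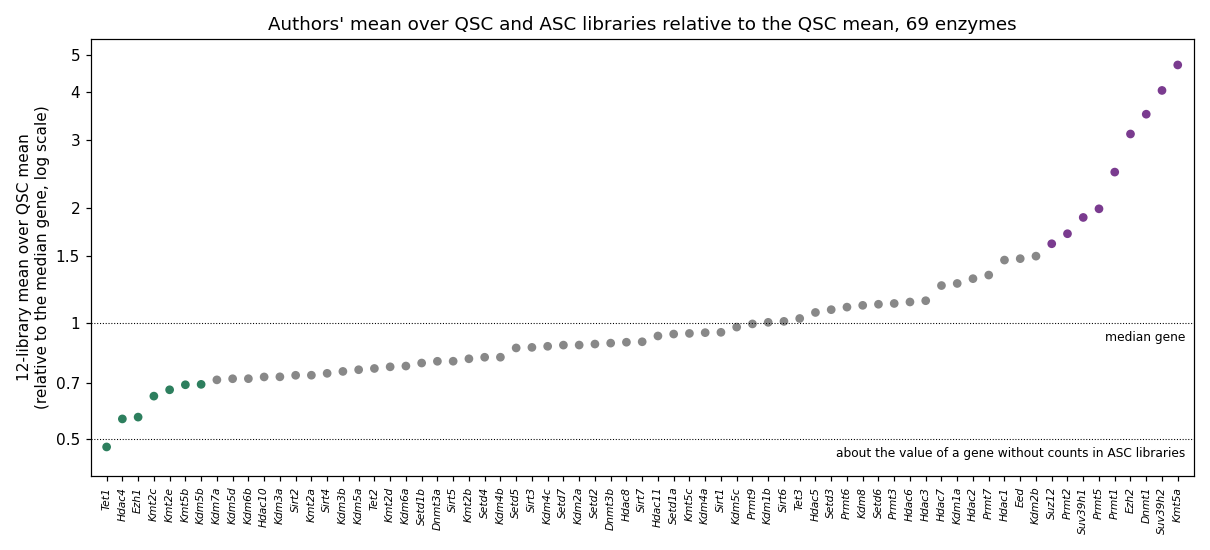
Mean ratio (y axis, log scale; the authors' 12-library mean over the QSC mean, with the median gene at 1) of the 69 enzymes in rising order (x axis); no error can be given. Purple points are the 9 enzymes at 1.5 or more, ending with *Kmt5a* at 4.70. Green points are the 7 under 0.7, beginning with *Tet1* at 0.476, which is below the value of a gene without ASC counts.

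Promoter sequence was searched because several of these enzymes are textbook targets of E2F, the factor family that switches on genes at the start of S phase. RefSeq windows on GRCm38.p6, from 250 bases before to 50 bases after a gene's start, were given for 60 of the 72 members (81 windows). One of 4 E2F octamers (TTTCCCGC, TTTGGCGC, TTTCGCGC or TTTGCCGC, on either strand) was found in 6 of 81 member windows (7.41%) and in 744 of 32851 windows of all genes (2.26%). Each octamer holds a CpG, and the member windows were richer in CpG than all windows, as given below. The part of CpG content in these shares was not tested. Of the members with a mean ratio of 1.5 or more 4 of 9 held one, of those under 0.7 with a window 0 of 6, and of those between 2 of 43. These are counts of genes, some with several windows, so the share of windows above is not their background. No share by ratio over all genes stands beside them, and whether octamer and ratio go together was not tested. The stretches are shown with the octamer in capitals, in the direction of transcription; an octamer on the opposite strand appears as its reverse complement, and positions are counted from the start of the RefSeq transcript that defines the window.
Dnmt1, position -219, opposite strand, chr9:20952824-20952853, minus strand: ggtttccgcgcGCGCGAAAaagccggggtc
Dnmt1, position 34, chr9:20952574-20952603, minus strand: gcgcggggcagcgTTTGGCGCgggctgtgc
Ezh2, position 4, chr6:47595009-47595038, minus strand: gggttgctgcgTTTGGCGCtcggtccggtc
Suv39h1, position -64, opposite strand, chrX:8074372-8074471, minus strand: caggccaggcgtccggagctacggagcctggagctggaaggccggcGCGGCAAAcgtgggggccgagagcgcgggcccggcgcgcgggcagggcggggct
Suz12, position -219, chr11:79992856-79992955, plus strand: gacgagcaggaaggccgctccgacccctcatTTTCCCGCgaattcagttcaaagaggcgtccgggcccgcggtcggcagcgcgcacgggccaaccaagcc
Kmt5c, position -105, opposite strand, chr7:4739976-4740075, plus strand: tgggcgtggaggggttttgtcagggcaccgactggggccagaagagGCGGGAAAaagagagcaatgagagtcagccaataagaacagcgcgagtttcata
Sirt4, position -9, chr5:115484288-115484317, minus strand: ccggctgaaggTTTCCCGCtgagcattctt
Ezh1, no octamer, shown as the paralog of Ezh2, chr11:101226464-101226563, minus strand: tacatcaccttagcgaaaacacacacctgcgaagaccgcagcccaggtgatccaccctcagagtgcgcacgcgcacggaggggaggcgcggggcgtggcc

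The *Dnmt1* stretches lie in exon sequence inside the annotated gene, in the most downstream of its 3 windows, and the other 2 windows held no octamer. The *Ezh2* stretch (exon), the *Sirt4* stretch (exon in part) and the *Suv39h1* stretch (no exon; the downstream of 2 windows) also lie inside the annotated gene, and the others upstream of it. The first 5 stretches belong to the 4 members with ratios of 1.61 to 3.50, and *Kmt5c* and *Sirt4* had ratios of 0.941 and 0.740. *Kmt5a*, with the highest ratio, held none of the octamers in its windows. The GLI nonamer GACCACCCA, on either strand, was in 0 of the member windows and in 83 windows of all genes (0.253%), and CCAAT was in 42.0% of member and 37.4% of all windows. The member windows were rich in CpG: the median GC content was 61.7% against 52.7%, and 82.7% against 35.8% of windows had an observed-to-expected CpG ratio of at least 0.6. A match is a match of letters only, and binding was not measured.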

How the data were processed

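Polyadenylated RNA (20 ng total RNA, strand-keeping kit) was sequenced for 12 samples. The authors assigned reads to transcripts of GRCm38 (GENCODE vM19) with salmon 0.13.1, summed them to genes with tximport, kept genes with at least 5 reads in at least 2 samples, and deposited estimated counts (expected counts) without normalization. salmon shares reads among transcripts, and 49.2% of the values used were not whole. The authors also deposited 4 tables of their DESeq2 comparisons; their fold changes and p-values were not used, and only the mean signal column, the authors' mean of normalized counts over all 12 libraries, served for the mean ratio. The names of 6 further count columns could not be matched to the labels and these columns were left out, so the planned ASC fit was not run.

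Counts of the 6 QSC libraries were rounded and fitted with edgeR 4.0.16 in R 4.3.3 (TMM, quasi-likelihood test, no filter, Benjamini-Hochberg adjustment); limma 3.58.1 (voom with quality weights), DESeq2 1.42.0, other scaling and filters, the replicate number as a block and leaving out each library were alternatives. A gene was called where the adjusted p was under 0.05 with a fold change of 1.2 or more, as in the study's methods. p-values measure the spread between libraries of combined mice; an exact permutation test of 3 against 3 could not go below p = 0.1. Replicates differed beyond counting noise and none was counted as a duplicate. The fit was tested on simulated data for the QSC comparison (25093 genes, 200 of them changed); edgeR found 91.4% of the 4-fold and 45.3% of the 2-fold changes, with 16 false calls.

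Exon lengths and positions came from GENCODE vM21, in which 69 of 72 member identifiers had the same version. *Dnmt3c* was grouped with the DNA methyltransferases. Genes named with values were those called, the 5 largest changes in each direction, the 10 highest per kb, the highest of each family and 18 enzymes studied in muscle stem cells; the members whose libraries did not overlap, other members and genes outside the rule were added after their values were seen. Members and lists were chosen with earlier results of these data known. The result of 1 marker list is not reported here.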

Additional observations from a re-analysis of the deposited data

How the results depend on the processing

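The count of called members was 0 in the reported fit and in every alternative run: limma-voom, DESeq2 or its size factors alone, filterByExpr, a floor of 10 counts, the replicate block, no fold minimum, and each library left out. Over all genes the fit called 88, DESeq2 384, limma-voom 73, the filter of at least 10 counts 48 (of 16759 genes) and the fit without Gli3Δ/Δ replicate 3 58; the cause was not tested. The members' median log2 fold change stayed below 0, from -0.0927 (without Gli3+/+ replicate 1) to -0.0386 (without Gli3+/+ replicate 2). Labels number the replicates alike in both genotypes, but same-numbered libraries did not deviate together (r = -0.182, -0.0667 and -0.0474 over 14696 genes); with the number as a block 0 members and 79 genes were called and the members' median was -0.0536.

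Of 35 named members 24 kept their sign in all 12 settings, 387 of the values had the sign of the reported fit and 33 did not, and 11 members changed sign at least once, none of them called. With DESeq2 *Ezh1* was at 0.002002 and with its size factors at 0.002004; with the block *Ezh1* was at 0.0278 and *Ezh2* at 0.01855; with limma-voom *Kdm1a* was at 0.003132, *Prmt7* at 0.02343, *Setd7* at -0.02925 and *Sirt2* at -0.009188; with at least 10 counts *Sirt2* was at -0.001343. Leaving out single libraries gave ranges of -0.1929 to 0.1967 for *Ezh1*, -0.2033 to 0.1711 for *Ezh2*, -0.3242 to 0.113 for *Hdac4*, -0.1262 to 0.04735 for *Kdm1a*, -0.04695 to 0.1512 for *Kmt5a*, -0.08899 to 0.2485 for *Prmt1*, -0.02314 to 0.2185 for *Prmt5*, -0.5115 to 0.03921 for *Prmt6*, -0.1168 to 0.04648 for *Prmt7*, -0.08683 to 0.1212 for *Setd7* and -0.01125 to 0.02307 for *Sirt2*. Over the alternatives for the mean ratio, added after seeing the data, 9 to 11 members were at 1.5 or more and 6 to 14 under 0.7. The 69 members of at least 1 CPM had 10 or more counts in every QSC library; for the other 3 the depth allows no statement on genotype.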
